A study of Mus musculus with 6 samples.

Results

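The cell cycle genes described here are 45 genes chosen by name: cyclins, cyclin-dependent kinases and their inhibitors, DNA replication genes and genes of mitosis. All 45 were among the 36610 gene names on the arrays. They were followed in ureters of 6 mice of 2 months of age on a C57BL/6N background, taken 4 days after unilateral ureteral obstruction, an operation that ties off a ureter and stops its urine flow. The 3 mice of the Col17a1-WT group were male. Of the 3 mice of the Col17a1-KO group, replicates 1 and 2 were male and replicate 3 was female. Both groups were obstructed, no unobstructed ureter was included, and the labels do not say how the knockout was made or in which cells. Each mouse gave 1 array. The genes were grouped as 8 of G1 (cyclins, kinases and E2f1), 3 inhibitors, 12 of S phase and 22 of mitosis.

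A cell that enters the cycle first makes D-type cyclins, which bind Cdk4 and Cdk6 and inactivate the retinoblastoma protein, releasing E2F factors that turn on the genes of DNA replication. Later, B-type cyclins with Cdk1 drive mitosis, and many mitotic genes are switched on in this phase by complexes that bind a short promoter element, the cell cycle genes homology region (CHR), often beside CCAAT boxes. The urothelium of the adult ureter divides rarely at rest and is known to proliferate after injury. In RNA from whole ureters, fewer cycling cells and less RNA per cycling cell cannot be told apart.

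The promoters of the members hold these elements to different extents, and stretches of a few are printed below. RefSeq windows (GRCm38.p6) from 250 bases before to 50 after the start site were matched by symbol for 37 of the 45 members. TTTGAA or TTCGAA (CHR) on either strand occurred in 14 of 18 mitosis genes, 3 of 11 S phase genes, 0 of 5 G1 genes and 0 of 3 inhibitors, against 21.7% of 27025 genes with a window. CCAAT occurred in 16 of the 18 mitosis genes, 9 of the 11 S phase genes, 1 of the 5 G1 genes and 2 of the 3 inhibitors, against 41.1% of all genes. All 14 mitosis genes with a CHR also held CCAAT, a pair found in 8.61% of all genes. An E2F sequence (TTTCGCGC, TTTGGCGC, TTTCCCGC or TTTGCCGC) occurred in 5 of the 11 S phase genes, 1 of the 18 mitosis genes, 1 of the 5 G1 genes and 1 of the 3 inhibitors, against 2.61% of all genes. In a wider list of G1 genes and inhibitors, described further on, a CHR occurred in 6 of 15 genes with a window, CCAAT in 12 and an E2F sequence in 5, so the absence of a CHR from the 8 G1 and inhibitor members with a window did not extend to that list. In a wider list of G2 and mitosis genes, 23 of 35 with a window held a CHR and 18 held both a CHR and CCAAT. In a wider list of S phase genes, 5 of 25 with a window held a CHR, 13 CCAAT and 10 an E2F sequence. TTCGAA reads the same on both strands and was counted once, and the E2F letters can overlap each other on opposite strands. A match describes these letters and is no evidence of binding.

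Stretches from 160 bases before to 30 bases after the start site follow, on the strand of the gene, with every match to the CHR, CCAAT or E2F letters in capitals; ATTGG is CCAAT on the opposite strand. Mki67 (chr7:135716350-135716539, minus strand) and Cdk1 (chr10:69352883-69353072, minus strand) are shown for the mitosis genes. With them are Ccnb2 (chr9:70421525-70421714, minus strand) and Cenpf (chr1:189688057-189688246, minus strand). Their values did not overlap between KO-labelled and WT ureters, as for 7.28% of all genes in that direction. Cdk2 and Ccnd2 did not overlap either and are not shown. Cdk2 holds CCAAT and an E2F sequence without a CHR, and Ccnd2 has no window. Whether the letters go with a difference between groups was not tested. Mcm5 (chr8:75109349-75109538, plus strand) and Mcm6 (chr1:128359676-128359865, minus strand) are shown for S phase. Cdkn1a (chr17:29090819-29091008, plus strand), an inhibitor, holds none of these letters in either of its RefSeq windows, the first of which is shown. The other inhibitors, Cdkn1b and Cdkn2a, hold CCAAT, and Cdkn2a also an E2F sequence. Among G1 genes, Ccne1, Cdk4, Cdk6 and E2f1 hold none of the letters. Of these, Ccne1, Cdk4 and Cdk6 were lowest in WT replicate 1, the order of arrays described below. Whether the letters go with that order was not tested.
Mki67: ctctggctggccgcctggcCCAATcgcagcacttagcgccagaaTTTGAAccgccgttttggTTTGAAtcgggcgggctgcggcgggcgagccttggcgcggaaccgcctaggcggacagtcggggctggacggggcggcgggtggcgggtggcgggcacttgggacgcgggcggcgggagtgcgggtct
Cdk1: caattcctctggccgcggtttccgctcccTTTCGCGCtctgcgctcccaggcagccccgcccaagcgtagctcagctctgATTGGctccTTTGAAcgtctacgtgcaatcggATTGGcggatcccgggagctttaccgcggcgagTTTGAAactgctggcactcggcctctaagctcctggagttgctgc
Ccnb2: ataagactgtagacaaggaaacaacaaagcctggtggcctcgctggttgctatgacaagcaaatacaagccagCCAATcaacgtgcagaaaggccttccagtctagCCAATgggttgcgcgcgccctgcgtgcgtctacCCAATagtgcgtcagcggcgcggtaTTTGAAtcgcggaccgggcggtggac
Cenpf: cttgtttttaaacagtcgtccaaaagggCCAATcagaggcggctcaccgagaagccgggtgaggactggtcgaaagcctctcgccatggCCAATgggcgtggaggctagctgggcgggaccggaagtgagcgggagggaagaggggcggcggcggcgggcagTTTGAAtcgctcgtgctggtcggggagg
Mcm5: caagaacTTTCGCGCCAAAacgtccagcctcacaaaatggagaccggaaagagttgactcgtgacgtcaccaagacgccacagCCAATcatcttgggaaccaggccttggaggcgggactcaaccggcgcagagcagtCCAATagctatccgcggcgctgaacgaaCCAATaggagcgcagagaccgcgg
Mcm6: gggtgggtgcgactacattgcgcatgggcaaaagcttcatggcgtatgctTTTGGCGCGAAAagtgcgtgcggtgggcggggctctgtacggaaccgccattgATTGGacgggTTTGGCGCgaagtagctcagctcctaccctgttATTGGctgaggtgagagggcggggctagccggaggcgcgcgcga
Cdkn1a: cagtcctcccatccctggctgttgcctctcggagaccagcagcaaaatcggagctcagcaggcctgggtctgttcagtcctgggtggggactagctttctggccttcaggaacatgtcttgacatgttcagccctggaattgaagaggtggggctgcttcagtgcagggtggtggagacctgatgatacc
The first 4 of these stretches each hold a CHR and CCAAT, and Cdk1 also an E2F sequence. Those of Mcm5 and Mcm6 hold E2F sequences and CCAAT without a CHR. Not every gene of a group resembles those shown. A CHR occurred in 14 of 18 mitosis genes, not in Ccnb1, and an E2F sequence in 5 of 11 S phase genes. In Mcm5 and in Mcm6 a pair of E2F matches on opposite strands overlaps and appears as 1 run of capitals.

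Several arrays stood apart, and directions are therefore given as KO-labelled against WT. Col17a1, the targeted gene, had log2 values of -2.33, -0.80 and -0.39 in WT replicates 1, 2 and 3 at its brighter probe. The KO-labelled replicates had 0.50, 0.53 and 0.40. Its measured signal was therefore higher, not lower, under the KO label, by 1.65, without passing the test (limma, adjusted p = 0.457). Its other probe gave -3.34, -2.76 and -2.70 against -1.76, -1.80 and -1.94, a difference of 1.10. At both probes every KO-labelled value lay above every WT value. Where the allele lies relative to these probes is not given in the labels, and a probe outside the altered stretch checks nothing. WT replicate 2 carried a kidney tubule transcript, Slc34a1, a phosphate transporter, at -0.69 against -4.99 to -4.29 in the other 5 arrays. Lrp2, an endocytic receptor of the tubule and the other measured gene of that list, showed no such excess over the other WT replicates. Its values were -4.05, -3.99 and -3.99 in WT and -4.66, -5.12 and -4.93 in KO-labelled ureters. It was thus lower in every KO-labelled array, by 0.89 (limma, adjusted p = 0.398), at a dim probe not well above background on all 6 arrays. WT replicate 1 had the lowest Col17a1 value. Correlations between arrays across genes were 0.977 to 0.993. The 7 urothelial and 5 smooth muscle markers were well above background on all 6 arrays.

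Of the 45 members, 44 passed the filter, and all 44 were well above background on every array. Ccne2, an E-type cyclin, was well above background on 1 array and was left out. No member passed the test between KO-labelled and WT ureters. Values are log2 signals relative to the 75th percentile of their array, so a value of 0 lies at that percentile and 1 unit is a 2-fold change. Adjusted p-values of the 44 members lay between 0.631 and 0.994 (limma), 0 of them had an unadjusted p under 0.05, and the smallest unadjusted p was 0.116. Over all 22260 genes 0 (0%) passed the adjusted threshold of 0.05 and 2017 (9.06%) had an unadjusted p under 0.05. Among the members 34 of 44 were higher and 10 lower under the KO label (median log2 difference 0.10), beside 49.8% higher and a median of -0.00087 over all genes. For 43 of the 44 members the 95% interval of the difference lay within a 2-fold change in either direction, and that of Rrm2 reached 1.01.

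**Figure D1:**
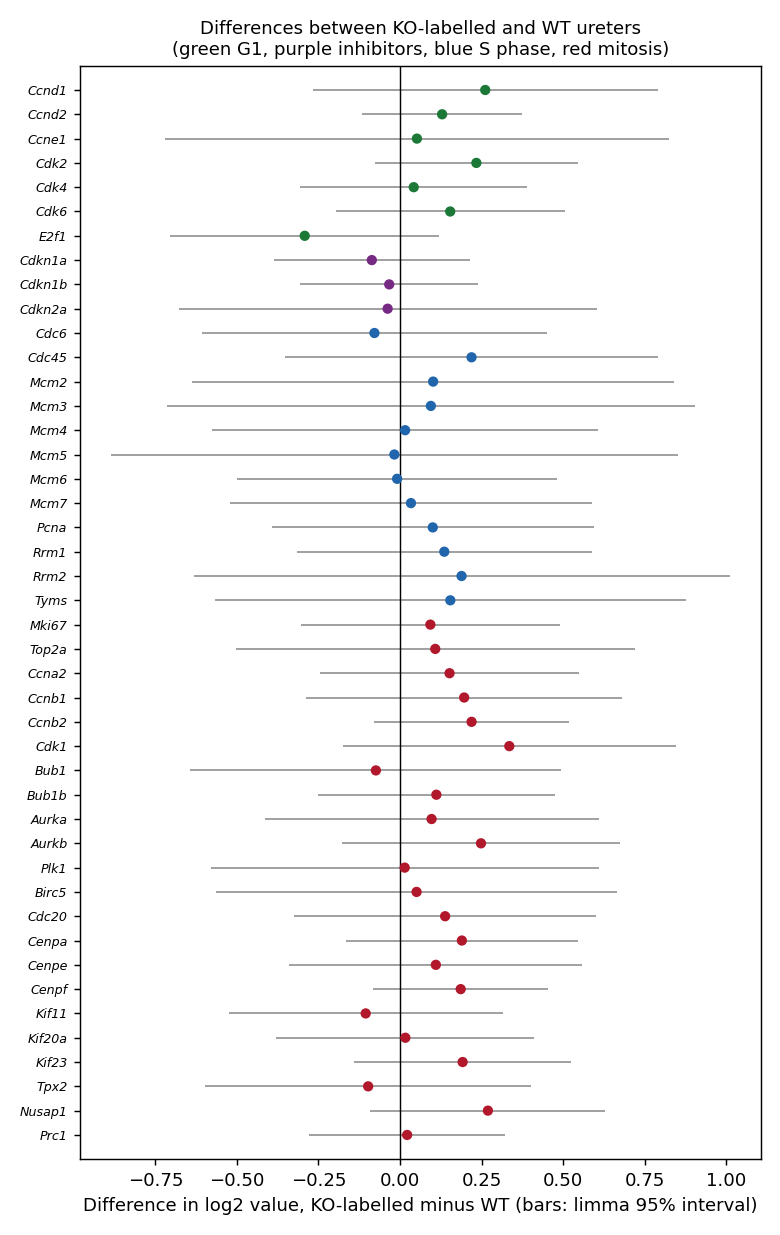
Difference in log2 value between KO-labelled and WT ureters for each of the 44 measured members, with limma's 95% interval as the bar and the phase group as the colour of the point. Every interval includes 0, and the differences run from -0.29 for E2f1 to 0.33 for Cdk1.

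The members shared an order of arrays that cut across the groups. The 22 mitosis genes and the 12 S phase genes were all lowest in WT replicate 1, and with 5 G1 genes this made 39 of the 44 members, where 29.6% of all genes were lowest in that array. WT replicate 2 was highest for 25 of the 44, against 24.4% of all genes. Within the KO-labelled group replicate 1 was the lowest for 36 of the 44, including 11 of 12 S phase and 18 of 22 mitosis genes, against 32.1% of all genes. The exceptions to the low value in WT replicate 1 were Ccnd2, E2f1 and the 3 inhibitors.

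**Figure D2:**
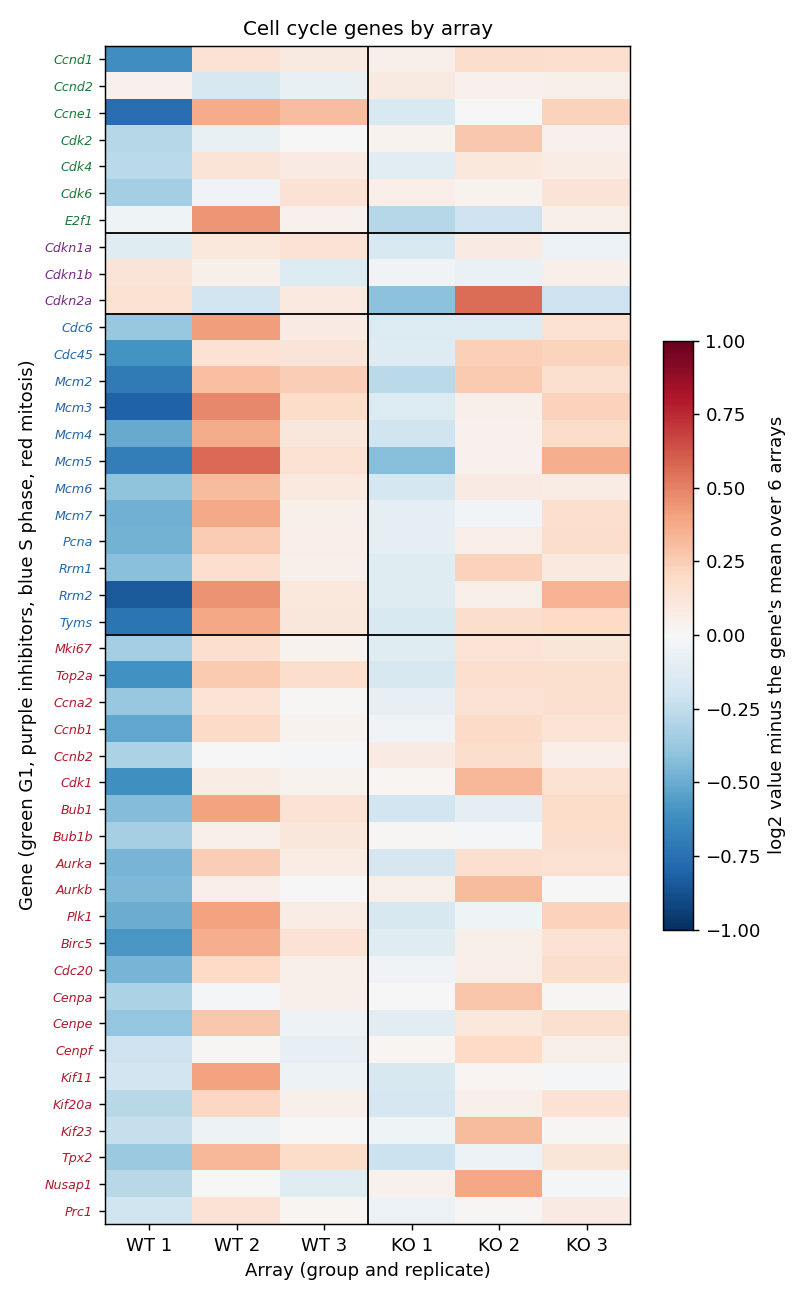
Log2 value of each measured member on each array minus the gene's mean over the 6 arrays, with genes in rows by phase group and arrays in columns by group and replicate. The column of WT replicate 1 is low for all S phase and mitosis genes, while the rows of the inhibitors share no pattern.

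Averaged over its 12 genes, S phase stood at -0.59, 0.35 and 0.12 in WT replicates 1, 2 and 3 and at -0.17, 0.09 and 0.20 in the KO-labelled replicates, each relative to the mean over arrays. Mitosis stood at -0.38, 0.17 and 0.04 against -0.07, 0.13 and 0.11. In these averages the WT ureters spanned the whole range of both groups of genes and the KO-labelled ureters lay inside it. Single genes did not all do so. WT replicate 2 was highest for 10 of 12 S phase and 12 of 22 mitosis genes, and KO-labelled replicate 2 for 2 and 8. Signals in WT replicate 2 were 1.50 to 2.45 times those in WT replicate 1 for S phase genes (median 1.83) and 1.13 to 1.93 times for mitosis genes (median 1.47). For G1 genes this ratio ran from 0.867 to 2.19 and for the inhibitors from 0.79 to 1.17. The median SD of a gene over the 6 arrays was 0.32 for S phase, 0.23 for mitosis, 0.18 for G1 and 0.13 for the inhibitors, beside 0.21 for all genes.

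**Figure D3:**
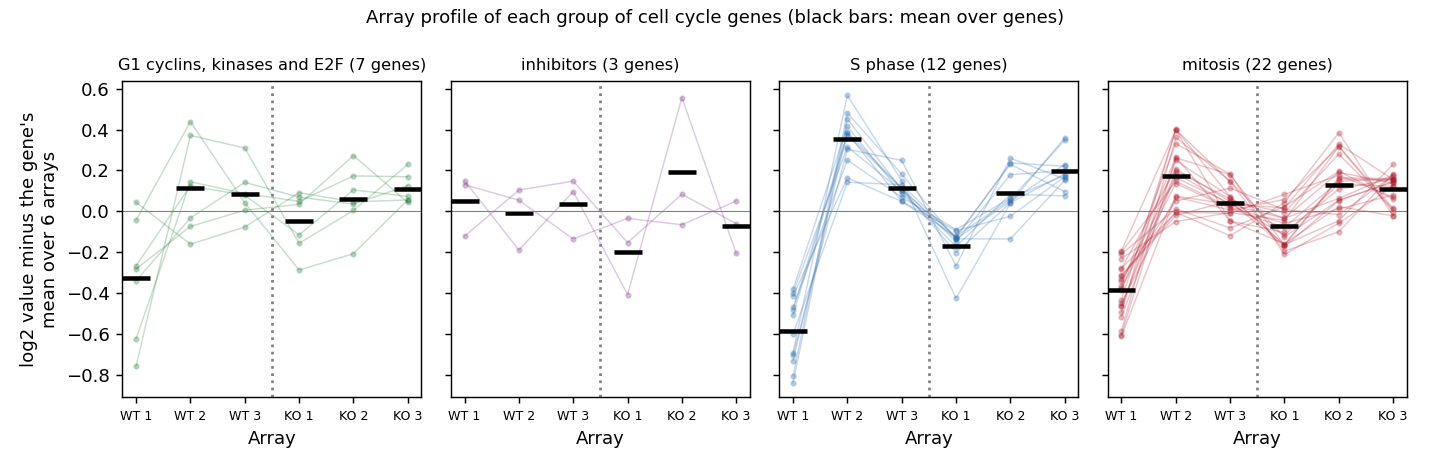
Log2 value minus the gene's mean over 6 arrays, with 1 joined set of points per gene and a black bar for the mean of the group of genes on each array, in 1 panel per phase group. The bars of S phase run from -0.59 in WT replicate 1 to 0.35 in WT replicate 2, and those of mitosis from -0.38 to 0.17.

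Of 7 measured genes 6 were higher under the KO label (median difference 0.13). Ccnd1, the cyclin that most growth signals raise first, had values of 2.49, 3.26 and 3.20 in WT replicates 1, 2 and 3 and 3.16, 3.29 and 3.28 in the KO-labelled replicates. WT replicate 1 alone was low, and the groups overlapped, with a difference of 0.26 ± 0.22 (limma estimate and standard error, adjusted p = 0.756). Ccnd2, another D-type cyclin, had 4.89, 4.68 and 4.77 against 4.94, 4.89 and 4.90. These did not overlap, although WT replicate 1 and KO-labelled replicate 2 were both at 4.89 after rounding. The difference was 0.13 ± 0.10 (limma, adjusted p = 0.741). The other Ccnd2 probes differed by 0.14, with overlapping groups, and by 0.31, with groups apart.

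Cdk2, the kinase of cyclins E and A, had -1.22, -1.01 and -0.93 in WT and -0.90, -0.66 and -0.89 in KO-labelled ureters. These values did not overlap either, though WT replicate 3 lay close to all but 1 KO-labelled value, and the difference was 0.23 ± 0.13 (limma, adjusted p = 0.631). E2f1, which switches on replication genes, was the member with the lowest difference, at -0.29 ± 0.17 (limma, adjusted p = 0.647). Its values were 0.58, 1.06 and 0.66 in WT and 0.33, 0.41 and 0.67 in KO-labelled ureters, so replicate 3 of the latter lay inside the WT range. Ccne1, a cyclin of S phase entry, had 0.99, 2.12 and 2.06 against 1.59, 1.75 and 1.98, and WT replicate 1 was again the low array. Cdk4 and Cdk6, the kinases of the D-type cyclins, differed by 0.042 and 0.15.

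Of the G1 and mitosis genes 4 had groups that did not overlap, all higher in KO-labelled ureters: Ccnd2, Cdk2, Ccnb2 and Cenpf. That is 4 of 44 members, beside 7.28% of all genes not overlapping in this direction, and 0 of 44 in the other direction, beside 8.13%. Ccnd2, Ccnb2 and Cenpf were picked out after their values were seen.

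The inhibitors showed no difference that passed the test, and none was lowest in WT replicate 1. Cdkn1a, the inhibitor that p53 induces, had 2.94, 3.17 and 3.21 in WT and 2.91, 3.15 and 3.005 in KO-labelled ureters, a difference of -0.087 ± 0.12 (limma, adjusted p = 0.859). Cdkn1b, which restrains Cdk2 in resting cells, had 2.04, 1.97 and 1.78 against 1.88, 1.85 and 1.96. The 6 values of Cdkn1a spanned 0.30 and those of Cdkn1b 0.27. Cdkn2a, whose products inhibit Cdk4 and Cdk6 and stabilise p53, had -1.65, -1.99 and -1.71 against -2.21, -1.25 and -2.01, so that the highest and the lowest array were both KO-labelled. Of the other 2 Cdkn1a probes, one differed by -0.049 and the other by -0.75, the latter with values of -3.21, -4.20 and -3.54 against -4.61, -4.55 and -4.03, which overlapped. The second Cdkn2a probe was well above background on 1 array only.

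S phase genes had the highest median SD over the ureters of the 4 groups of genes. Under the KO label 9 of 12 genes were higher and 3 lower (median difference 0.097). Mcm2, a subunit of the replicative helicase, had 0.85, 1.86 and 1.80 in WT and 1.29, 1.81 and 1.71 in KO-labelled ureters. Replicate 1 was the low array of each group, and the difference of 0.10 ± 0.30 was smaller than the SD among WT mice, 0.57 (limma, adjusted p = 0.943). Pcna, the sliding clamp of DNA polymerases, had 3.66, 4.38 and 4.20 against 4.04, 4.19 and 4.31, with a difference of 0.10 ± 0.20 (limma, adjusted p = 0.911). Mcm5, also of the helicase, spanned 1.97, 3.23 and 2.81 against 2.24, 2.70 and 3.02, and its group means differed by -0.017.

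The enzymes that make DNA precursors were also lowest in WT replicate 1. Rrm2, the regulated subunit of ribonucleotide reductase, had 1.90, 3.19 and 2.84 in WT and 2.62, 2.80 and 3.09 in KO-labelled ureters, so WT replicate 2 was 2.45 times WT replicate 1. Its group difference was 0.19 ± 0.34 (limma, adjusted p = 0.895). Tyms, thymidylate synthase, had 2.04, 3.16 and 2.89 against 2.63, 2.95 and 2.97, a difference of 0.15 ± 0.30. Rrm1, the other reductase subunit, differed by 0.14 ± 0.19. It was highest in KO-labelled replicate 2, at 2.57, while Rrm2 and Tyms were highest in WT replicate 2. In all 3 genes every KO-labelled value lay above WT replicate 1.

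Of the genes that load and start the helicase, Cdc45, which activates it, had -2.64, -1.89 and -1.90 in WT and -2.16, -1.80 and -1.81 in KO-labelled ureters. Its difference, 0.22 ± 0.24 (limma, adjusted p = 0.811), was the highest among S phase genes, and again only WT replicate 1 was clearly low. Cdc6, a loader of the helicase, had a difference of -0.079 ± 0.22. Mcm3, Mcm4, Mcm6 and Mcm7, the other helicase subunits of the list, differed by -0.0090 to 0.094.

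Mitosis genes leaned to higher values in the KO-labelled ureters without passing the test. The 22 genes split into 19 higher and 3 lower (median difference 0.11). Mki67, the proliferation marker that coats mitotic chromosomes (probe on chromosome 7 at 142881591 to 142881650, mm9), had 3.34, 3.85 and 3.72 in WT and 3.56, 3.81 and 3.80 in KO-labelled ureters. The KO-labelled range lay inside the WT range, and the difference was 0.093 ± 0.16 (limma, adjusted p = 0.893), with a 95% interval of -0.30 to 0.49. Top2a, the topoisomerase that untangles replicated DNA, had 2.40, 3.27 and 3.18 against 2.84, 3.17 and 3.16. It showed the same low WT replicate 1, and its difference was 0.11 ± 0.25.

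Cdk1, the kinase that drives entry into mitosis, had the highest difference of all members, 0.33 ± 0.21 (limma, adjusted p = 0.674). Its values were 0.12, 0.81 and 0.77 in WT and 0.75, 1.06 and 0.89 in KO-labelled ureters, and its second probe differed by 0.37. The groups overlapped only through KO-labelled replicate 1. Ccnb1, its cyclin, had 1.37, 2.08 and 1.92 against 1.86, 2.08 and 2.03, and Ccnb2, the other B-type cyclin, 2.92, 3.23 and 3.22 against 3.32, 3.41 and 3.30. For Ccnb2 the groups did not overlap, and the difference was 0.22 ± 0.12 (limma, adjusted p = 0.636).

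Among genes of the spindle and the chromosomal passenger complex, Nusap1, a microtubule bundling protein, had 0.15, 0.42 and 0.31 in WT and 0.47, 0.81 and 0.41 in KO-labelled ureters. Aurkb, the kinase of the passenger complex, had -0.36, 0.16 and 0.091 against 0.14, 0.40 and 0.083. Both were highest in KO-labelled replicate 2 and overlapped between groups, with differences of 0.27 ± 0.15 and 0.25 ± 0.18 (limma, adjusted p = 0.631 and 0.709). Cenpf, a kinetochore protein, had 1.07, 1.29 and 1.20 against 1.30, 1.48 and 1.34, a difference of 0.19 ± 0.11 (limma, adjusted p = 0.654). Its groups did not overlap, with WT replicate 2 just below KO-labelled replicate 1, and its second probe differed by -0.053.

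The other 14 mitosis genes are the cyclin Ccna2, the kinases Aurka and Plk1, the checkpoint proteins Bub1 and Bub1b, Cdc20, which activates the anaphase-promoting complex, Birc5 of the passenger complex, the centromere proteins Cenpa and Cenpe, the motors Kif11, Kif20a and Kif23, and the spindle proteins Tpx2 and Prc1. Their differences, at the brightest probe of each, lay between -0.11 for Kif11 and 0.19 for Kif23. The other Kif23 probes differed by -0.15, -0.041 and -0.052. Bub1, Kif11 and Tpx2 were the 3 lower genes. Each of the 14 had its lowest value in WT replicate 1.

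Different probes of a gene did not always agree. Of 21 members with more than 1 measured probe, 8 had probes of both signs: Mcm6, Mcm7, Tyms, Top2a, Ccna2, Cenpf, Kif23 and Prc1. For Prc1, which bundles microtubules at the spindle midzone, 5 probes ranged from -0.37 to 0.43. For the other 7 the probes lay between -0.15 and 0.19.

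The direction of the differences turned on WT replicate 1. Without that array 14 of the 44 members were higher and 30 lower under the KO label, and their median difference was -0.077 (all genes -0.015). S phase then had 0 higher and 12 lower genes, with a median of -0.21, and mitosis 8 higher and 14 lower, with a median of -0.055. Without WT replicate 2, the array with the high Slc34a1 value, 40 of 44 were higher, and the medians of S phase and mitosis were 0.26 and 0.24. Without KO-labelled replicate 3, the female, which equals a fit with sex as a term, 28 were higher and 16 lower, and these medians were 0.021 and 0.056. In all 3 of these fits 0 members passed the adjusted threshold and 0 had an unadjusted p under 0.05.

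**Figure D4:**
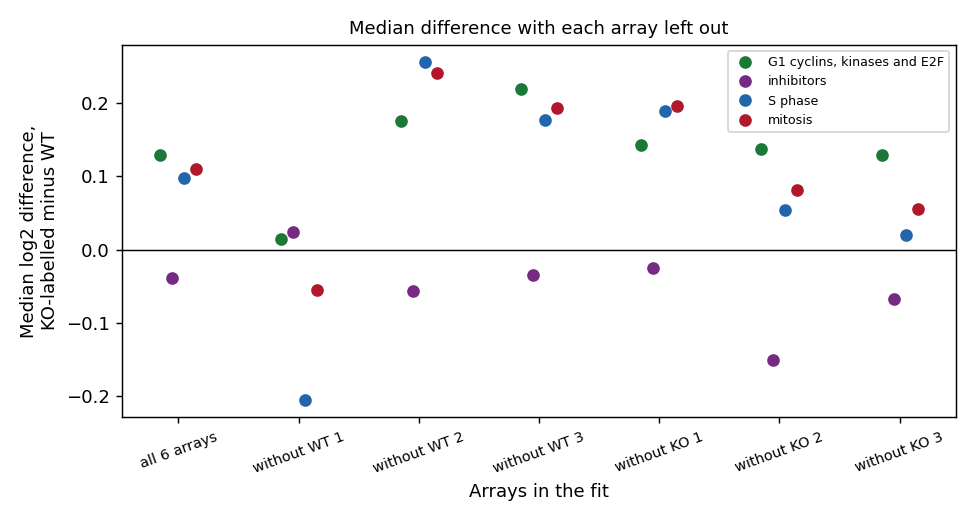
Median log2 difference, KO-labelled minus WT, over the measured genes of each phase group, in the fit on all 6 arrays and with each array left out. S phase moves from 0.097 with all arrays to -0.21 without WT replicate 1 and to 0.26 without WT replicate 2.

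A wider set of 96 cell cycle genes outside the list was also mostly lowest in WT replicate 1. Of 32 further S phase genes 28, and of 45 further G2 and mitosis genes 41, had their lowest value there, against 8 of 19 further G1 genes and inhibitors. None of the 96 passed the adjusted threshold, and 2 (both higher, where 4.35% of all genes were) had an unadjusted p under 0.05 in limma. Cdc25b, a phosphatase that activates Cdk1, had -0.91, -0.93 and -1.02 in WT and -0.62, -0.55 and -0.76 in KO-labelled ureters, a difference of 0.31 ± 0.11 (limma, adjusted p = 0.49). Cdca2, which recruits a phosphatase to chromosomes as mitosis ends, had -0.83, -0.40 and -0.57 against -0.21, -0.048 and -0.32, a difference of 0.41 ± 0.15 (limma, adjusted p = 0.504). Both were apart between groups, as was Wee1, the kinase that opposes Cdc25b, at 0.29 ± 0.12 (limma, adjusted p = 0.554). These were the only 3 of the 96 apart in this direction, beside 7.28% of all genes. With the probes of each gene averaged, 0 of the 45 further G2 and mitosis genes had an unadjusted p under 0.05 and 0 were apart, so all 3 lost their separation. Without WT replicate 3, or without KO-labelled replicate 1 or 2, 0 of the 45 had an unadjusted p under 0.05. Of the 96, 1 gene was apart in the lower direction, beside 8.13% of all genes. It was Rb1, the retinoblastoma protein, at -0.18 ± 0.10 (limma, adjusted p = 0.638). Wee1 and Rb1 were picked out after their values were seen.

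Markers of other cell types moved across the same arrays. The neutrophil list (5 of 5 measured, all well above background on all 6 arrays) stood at -0.70, 0.51 and 0.01 in WT replicates 1, 2 and 3 and at -0.43, 0.04 and 0.57 in the KO-labelled replicates, relative to its mean. Its summed signal ran from 145 to 315 times the array's 75th percentile in WT and from 154 to 318 in KO-labelled ureters, with WT replicate 1 lowest. The members of this list differed: Ly6g, S100a8 and S100a9 were lowest in WT replicate 1, but Csf3r and Retnlg were lowest in KO-labelled replicate 1, and Ly6g was highest there. S100a8 ran from 3.07 to 5.70 and S100a9 from 4.18 to 7.08 over the 6 arrays, while Csf3r ran from 6.55 to 6.83, so the low mean and sum in WT replicate 1 came mainly from S100a8 and S100a9. The part of this list in the order of the cell cycle genes was not tested. Urothelial markers (7 of 7) summed to 108 to 185 in WT and 198 to 324 in KO-labelled ureters, and smooth muscle markers (5 of 5) to 171 to 289 and 238 to 374, both lowest in WT replicate 2. Macrophage markers (7 of 7) summed to 256 to 301 in WT and 143 to 228 in KO-labelled ureters, and the 4 dendritic cell and MHC class II genes to 281 to 329 and 76.1 to 162. None of these lists was lowest in WT replicate 1.

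**Figure D5:**
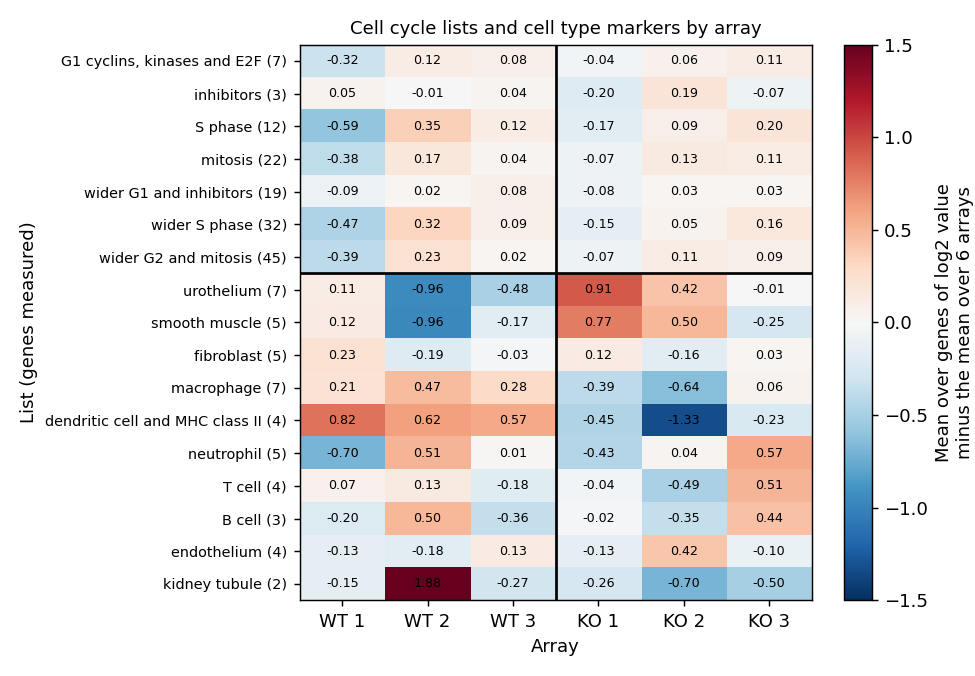
Mean over the genes of a list of the log2 value minus the gene's mean over 6 arrays, for the cell cycle lists in the upper rows and cell type markers in the lower rows, with the number of genes measured in brackets. The S phase and mitosis rows are lowest in WT replicate 1, as is the neutrophil row at -0.70. The mean of the 2 measured kidney tubule genes reaches 1.88 in WT replicate 2, mainly through Slc34a1.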

How the data were processed

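Total RNA of whole ureters was hybridised to 1-colour (Cy3) Agilent arrays, 1 per mouse. Per the file headers, the deposited intensity values came from Agilent Feature Extraction 12.0.3.1, with spatial and multiplicative detrending switched on. All 6 arrays shared 1 slide and 1 scan. Probe coordinates are mm9, per the file headers. The labels name no litter or pairing, so p-values measure the spread between these mice.

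Of 59305 non-control spots, those flagged as outliers were dropped and spots averaged to 56605 probes, of which 35482 to 36567 per array were well above background. From the log2 of the processed signal, the 75th percentile of the same array was subtracted. A probe was kept if it was well above background throughout at least 1 group, and a gene was represented by its brightest probe, leaving 22260 genes, named as in the files. Groups were compared with limma 3.58.1 (R 4.3.3; lmFit, eBayes) with Benjamini-Hochberg adjustment over all genes. The procedure was tested on data simulated with the means and spread of these genes. At the adjusted threshold it recovered 47% of 2-fold and 93% of 4-fold changes, with 8 false calls. Alternatives were 16 settings of background, centring, filter, probe choice, variance model, weights, replicate block and arrays. The number of arrays limits the precision.

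The members, lists and tests were chosen with earlier results of these data known. Values per array are given for 9 anchor genes and the 3 members of each group with the largest difference. They are also given for Ccne1, Mcm5, Ccnd2, Ccnb2 and Cenpf, which fall outside this rule and were picked out after their values were seen. From the wider lists genes at an unadjusted p under 0.05 are named, and others named are said to be picked afterwards.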

Additional observations from a re-analysis of the deposited data

How the results depend on the processing

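The precision is that of 3 arrays against 3, and an exact permutation test of such groups cannot go below p = 0.1. The count of genes past the adjusted threshold, 0 in the reported fit, was 498 with array weights, which ranged 30.2-fold, weighted WT replicate 1 least and did not converge, 1 with the replicate block, and 0 to 1 with each array left out. The replicate numbers gave no consistent pairing (correlations of same-numbered deviations 0.531, -0.149 and -0.0295), and the block changed no call among the members. No member passed the threshold in any of the 16 settings. With each array left out, the median difference was 0.015 to 0.22 for G1 genes, -0.15 to 0.024 for inhibitors, -0.21 to 0.26 for S phase and -0.055 to 0.24 for mitosis.

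Differences that changed sign with an array left out ranged from -0.31 to 0.25 in Ccne1, -0.081 to 0.12 in Cdk4, -0.11 to 0.024 in Cdkn1b, -0.33 to 0.16 in Cdkn2a, -0.027 to 0.35 in Cdc45, -0.23 to 0.28 in Mcm2, -0.28 to 0.36 in Mcm3, -0.23 to 0.21 in Mcm4, -0.20 to 0.23 in Mcm7 and -0.11 to 0.25 in Pcna. They ranged from -0.039 to 0.25 in Rrm1, -0.18 to 0.46 in Rrm2, -0.17 to 0.39 in Tyms, -0.055 to 0.20 in Mki67, -0.17 to 0.27 in Top2a, -0.012 to 0.34 in Ccnb1, -0.026 to 0.20 in Bub1b, -0.11 to 0.25 in Aurka, -0.23 to 0.22 in Plk1 and -0.23 to 0.24 in Birc5. They ranged from -0.060 to 0.27 in Cdc20, -0.054 to 0.27 in Cenpe, -0.12 to 0.12 in Kif20a, -0.073 to 0.10 in Prc1, -0.29 to 0.11 in Cdc6, -0.37 to 0.26 in Mcm5, -0.21 to 0.15 in Mcm6, -0.31 to 0.11 in Bub1, -0.23 to 0.068 in Kif11 and -0.31 to 0.044 in Tpx2.

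With array weights the sign changed to -0.33 in Ccne1, -0.093 in Cdk4, -0.042 in Cdk6, 0.080 in Cdkn1b, -0.076 in Cdc45, -0.27 in Mcm2, -0.21 in Mcm3, -0.19 in Mcm4, -0.10 in Mcm7, -0.072 in Pcna, -0.031 in Rrm1, -0.10 in Rrm2 and -0.11 in Tyms. It also changed to -0.044 in Mki67, -0.18 in Top2a, -0.066 in Bub1b, -0.093 in Aurka, -0.15 in Plk1, -0.18 in Birc5, -0.028 in Cdc20, -0.11 in Kif20a and -0.042 in Prc1. Without WT replicate 2 and KO replicate 3 together it changed to 0.014 in Cdc6, 0.077 in Mcm5, 0.11 in Mcm6 and 0.052 in Kif11. Averaging the probes of a gene changed it to 0.086 in Mcm6, -0.045 in Mcm7 and -0.013 in Kif23, with median centring to 0.010 in Mcm5 and 0.019 in Mcm6, and with normexp background to 0.0068 in Mcm6. The cause of these changes was not tested.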

Other observations

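In the wider list of G1 genes and inhibitors, 8 of 19 genes were lowest and 5 highest in WT replicate 1. Those named here were picked out after their values were seen. Myc, a transcription factor that drives entry into the cycle, was -0.50 there and between 0.62 and 1.003 in the other 5 arrays. Cdkn2c, an inhibitor of Cdk4 and Cdk6, was 3.19 there and between 2.02 and 2.34 elsewhere. Cdkn1c, an inhibitor of cyclin-dependent kinases, was highest there at 2.70, with 2.12 in KO-labelled replicate 1 and a range down to 0.41 in the others, so that its values did not set WT replicate 1 clearly apart. Not every inhibitor was high in that array. Cdkn2d of the same list was lowest there, at 2.19 against 2.66 to 3.02 in the other 5 arrays. Gadd45a was also lowest there, at -0.79 against -0.10 to 0.58.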
